A study of Drosophila melanogaster with 9 samples.

Results

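The 3 libraries labelled Chd1[-/-] were set against the 3 libraries labelled Chd1[WT/WT], together 6 of the 9 libraries of the series, over all 16837 genes in the files. Per the labels, the RNA came from Drosophila melanogaster heads, taken from virgin females aged 10 days. The Chd1-deficient flies are deletion mutants by the series title. The other 3 libraries, in which UAS-Chd1 is driven in neurons by elav-Gal4, entered the fit to estimate the spread and are not described. The group labelled wild type may carry a restored copy of Chd1, because the design text lists rescued flies and no wild type. How many heads were pooled, and whether replicate libraries were made from separate flies, is not stated, so the spread behind each p-value may be technical.

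Chd1 is a chromodomain helicase of the Snf2 family. It binds methylated histone H3 at transcribed genes and uses ATP to assemble and space nucleosomes behind RNA polymerase II. In flies it is also known for loading the replacement histone variant of H3 onto the paternal genome at fertilization, and adults without it are viable. The comparison asks which transcripts differ in heads without Chd1. The genes treated here lie mostly outside the neuron, eye, muscle, immune and male groups, and are ordered by how strongly they were expressed.

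Levels are in TPM, transcript abundance per length scaled to a fixed library total, so sequencing depth is unknown and a rise of some genes lowers the share left to others. Fold changes are differences in log2(TPM + 0.5), Chd1-deficient over wild type, which understates changes of low genes. Chd1 itself (FBgn0250786, chromosome 2L, 2979562 to 2987723 in BDGP6.54) had 18.2, 19.9 and 20.2 TPM in Chd1-deficient libraries versus 104, 108 and 92.7 TPM in the wild-type libraries. The groups did not overlap, and the log2 fold change was -2.35 (SE 0.06, limma adjusted p = 2.4e-10).

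Transcripts known from tissues outside the head were abundant. Markers of ovary and eggshell had a sum of 30507 to 32558 TPM in Chd1-deficient and 25030 to 30859 TPM in wild-type libraries (22 genes tested, 5 higher and 13 lower). Markers of the male germline and accessory gland had a sum of 486 to 496 TPM in Chd1-deficient and 51.1 to 58.2 TPM in wild-type libraries, with all 20 tested markers of 21 higher. For 15 neuron markers (13 higher, 1 lower) the sum was 349 to 371 TPM in Chd1-deficient and 113 to 131 TPM in wild-type libraries. For 7 glial markers (7 higher) the sum was 251 to 272 TPM in Chd1-deficient and 66.5 to 71.2 TPM in wild-type libraries. That of 13 photoreceptor markers (13 higher) was 5848 to 6015 TPM in Chd1-deficient and 1437 to 1471 TPM in wild-type libraries. The sum of 21 muscle markers (21 higher) was 6670 to 6856 TPM in Chd1-deficient and 1534 to 1611 TPM in wild-type libraries. That of 14 gut markers (14 higher) was 5848 to 6207 TPM in Chd1-deficient and 2151 to 2560 TPM in wild-type libraries. The sum of 9 fat body markers (9 higher) was 2604 to 2673 TPM in Chd1-deficient and 1746 to 1832 TPM in wild-type libraries. For 9 hemocyte markers (4 tested, 4 higher) the sum was 34.97 to 39.2 TPM in Chd1-deficient and 14.03 to 14.9 TPM in wild-type libraries. For 5 Malpighian tubule markers (4 tested, 2 higher, 2 lower) the sum was 128 to 134 TPM in Chd1-deficient and 101 to 103 TPM in wild-type libraries. No marker of these lists was at 0 in all libraries of a group. Over all tested genes 42.9% were higher and 46% lower. Testing required 1 TPM in 3 or more libraries, which favours rises among genes low in wild type. No wild-type library reached 1 TPM for 5 male, 3 glial, 1 neuron, 1 fat body and 1 hemocyte marker. With at least 1 TPM in all 6 libraries, 12 of 12 male, 3 of 3 glial, 10 of 12 neuron, 6 of 6 fat body and 2 of 2 hemocyte markers were higher. Fewer cells of a type and less RNA per cell cannot be told apart in these values, and the part of cell mixture in the results below was not tested. The third wild-type library stood somewhat apart: its median absolute log2 difference from its fellows was 0.14 and 0.15, against 0.06 between the other two.

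The direction of change followed the level of expression. Weakly expressed genes were mostly higher in the Chd1-deficient libraries, by large factors, and genes above 10 TPM were mostly lower, by small ones. Of 11094 genes that reached 1 TPM in 3 or more libraries, limma called 88.9% at an adjusted p under 0.05, 42.9% (4758) higher and 46% (5101) lower. Changes of 2-fold or more were called in 27.1% (3003) as rises and in 2.06% (228) as falls. The filter counts all 9 libraries and can be passed through the Chd1-deficient libraries alone, and 1609 tested genes had no wild-type library at 1 TPM. The median log2 fold change over all tested genes was -0.05.

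Genes were classed by their mean log2 level over the 6 libraries. Below 3 TPM, 2214 of 2620 tested genes rose and 91 fell, with a median log2 fold change of 1.39. From 3 to 10 TPM, 1078 of 1487 rose and 231 fell (median 0.88). From 10 to 30 TPM the balance turned, with 671 of 2234 higher and 1318 lower (median -0.32). From 30 to 100 TPM, 406 of 3189 rose and 2497 fell (median -0.41). At 100 TPM and above, 389 of 1564 rose and 964 fell (median -0.21). Rises of at least 2-fold made up 66.5%, 45.3%, 15.9%, 4.42% and 5.69% of the tested genes from the lowest class to the highest, and falls of that size 1.41%, 2.69%, 3.45%, 1.98% and 0.703%.

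The filter favours rises in the lowest class, where 1596 of its 2620 genes had no wild-type library at 1 TPM. Among genes of that class with at least 1 TPM in all 6 libraries, 306 of 437 were higher and 30 lower (median 0.65); in the class from 3 to 10 TPM these numbers were 1008 and 223 of 1405 (median 0.83). Classing genes by the wild-type mean alone left medians of 1.45, 0.77, -0.29, -0.44 and -0.29 from low to high, and classing by the Chd1-deficient mean gave 1.14, 1.10, -0.33, -0.37 and -0.13. Leaving out the neuron, eye, muscle, immune and male lists removed 365 tested genes and left medians of 1.38, 0.83, -0.34, -0.42 and -0.22.

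**Figure D1:**
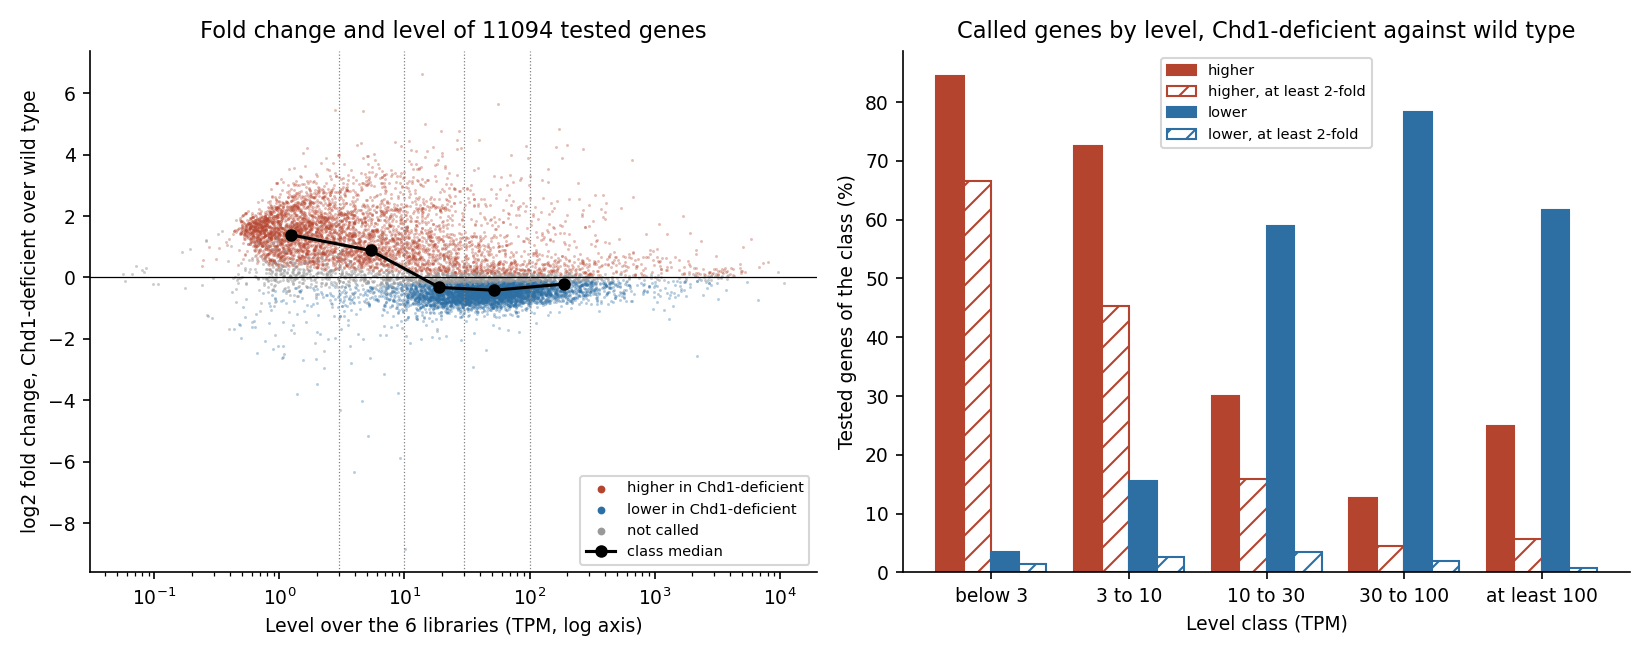
Left, log2 fold change (Chd1-deficient over wild type) of each tested gene against its level over the 6 libraries in TPM (log axis), with class limits dotted and class medians in black. Right, percentage of tested genes in each level class called higher or lower in Chd1-deficient libraries, in all and with at least 2-fold change; 84.5% were higher below 3 TPM and 78.3% lower from 30 to 100 TPM.

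Fixed levels of TPM, which is a relative measure, were crossed in both directions. All 3 Chd1-deficient libraries lay above 1 TPM and all 3 wild-type libraries below it for 1498 genes, and the opposite held for 34. At 10 TPM these numbers were 630 and 141, at 50 TPM 226 and 605, at 100 TPM 126 and 307, and at 1000 TPM 21 and 15. Genes of the class from 30 to 100 TPM held 16.3% to 16.8% of the total in the Chd1-deficient libraries and 19.1% to 20.7% in the wild-type libraries. Genes of at least 100 TPM held 76.3% to 77.0% in the Chd1-deficient and 73.6% to 75.7% in the wild-type libraries. The 100 most abundant genes of a library took 34.7% to 35.8% of the total in Chd1-deficient and 31.4% to 34.1% in wild-type libraries.

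The genes named next had the largest rises of their level class outside the neuron, eye, muscle, immune and male lists. Acp65Aa, an adult cuticle protein, had 406, 386 and 397 TPM in Chd1-deficient libraries versus 4.77, 7.99 and 10.6 TPM in wild type (log2 fold change 5.65, SE 0.20). CG7203 had 899, 862 and 894 TPM in Chd1-deficient libraries versus 46.4, 42.4 and 43.8 TPM in wild type (4.31, SE 0.05). Every Chd1-deficient library was far above every wild-type library for both genes. Acp1, another adult cuticle protein, averaged 708 ± 7.75 TPM in Chd1-deficient and 36.8 ± 0.304 TPM in wild-type libraries (SD, n = 3 each). The cuticle gene Cpr92F averaged 104 ± 2.24 TPM in Chd1-deficient and 3.31 ± 0.126 TPM in wild-type libraries, and the odorant-binding protein gene Obp56e 144 ± 7.51 TPM in Chd1-deficient and 4.80 ± 0.527 TPM in wild-type libraries. In the class from 10 to 30 TPM, CG11458 rose most, with 146, 127 and 154 TPM in Chd1-deficient libraries versus 0.632, 1.81 and 0.675 TPM in wild type (6.61, SE 0.25).

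The largest falls were picked in the same way. At 100 TPM and above, dhd, a germline thioredoxin, had 888, 950.2 and 878 TPM in Chd1-deficient libraries versus 5475, 5284 and 5106 TPM in wild type (log2 fold change -2.55, SE 0.04). CG8173 averaged 68.2 ± 3.19 TPM in Chd1-deficient and 189.7 ± 11.9 TPM in wild-type libraries (-1.47, SE 0.05), and the small heat shock gene Hsp26 815 ± 18.7 TPM in Chd1-deficient and 2069 ± 41.7 TPM in wild-type libraries (-1.34, SE 0.03). From 10 to 30 TPM, Ady43A, a predicted adenosine kinase, averaged 13.8 ± 0.261 TPM in Chd1-deficient and 58.4 ± 0.160 TPM in wild-type libraries (-2.04, SE 0.04), and dgo (diego), a planar cell polarity gene, 5.04 ± 0.587 TPM in Chd1-deficient and 23.9 ± 1.19 TPM in wild-type libraries (-2.14, SE 0.08). In the class from 3 to 10 TPM, CG13159 had 0.655, 0.490 and 0.219 TPM in Chd1-deficient libraries versus 30.8, 29.0 and 40.7 TPM in wild type (-5.17, SE 0.17). Below 3 TPM, CG10591 averaged 0.259 ± 0.109 TPM in Chd1-deficient and 7.84 ± 0.287 TPM in wild-type libraries (-3.47, SE 0.10). The groups did not overlap for any of these genes. For His1:CG33837, a linker histone gene, the files list 0 TPM in each Chd1-deficient library and 254, 202 and 229.7 TPM in wild type. The copies of this gene are nearly identical, so how reads were split among them can set such values. The minor spliceosome RNA snRNA:U12 had 12.5, 10.2 and 15.8 TPM in Chd1-deficient libraries versus 82.5, 91.4 and 123 TPM in wild type (-2.90, SE 0.17).

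**Figure D2:**
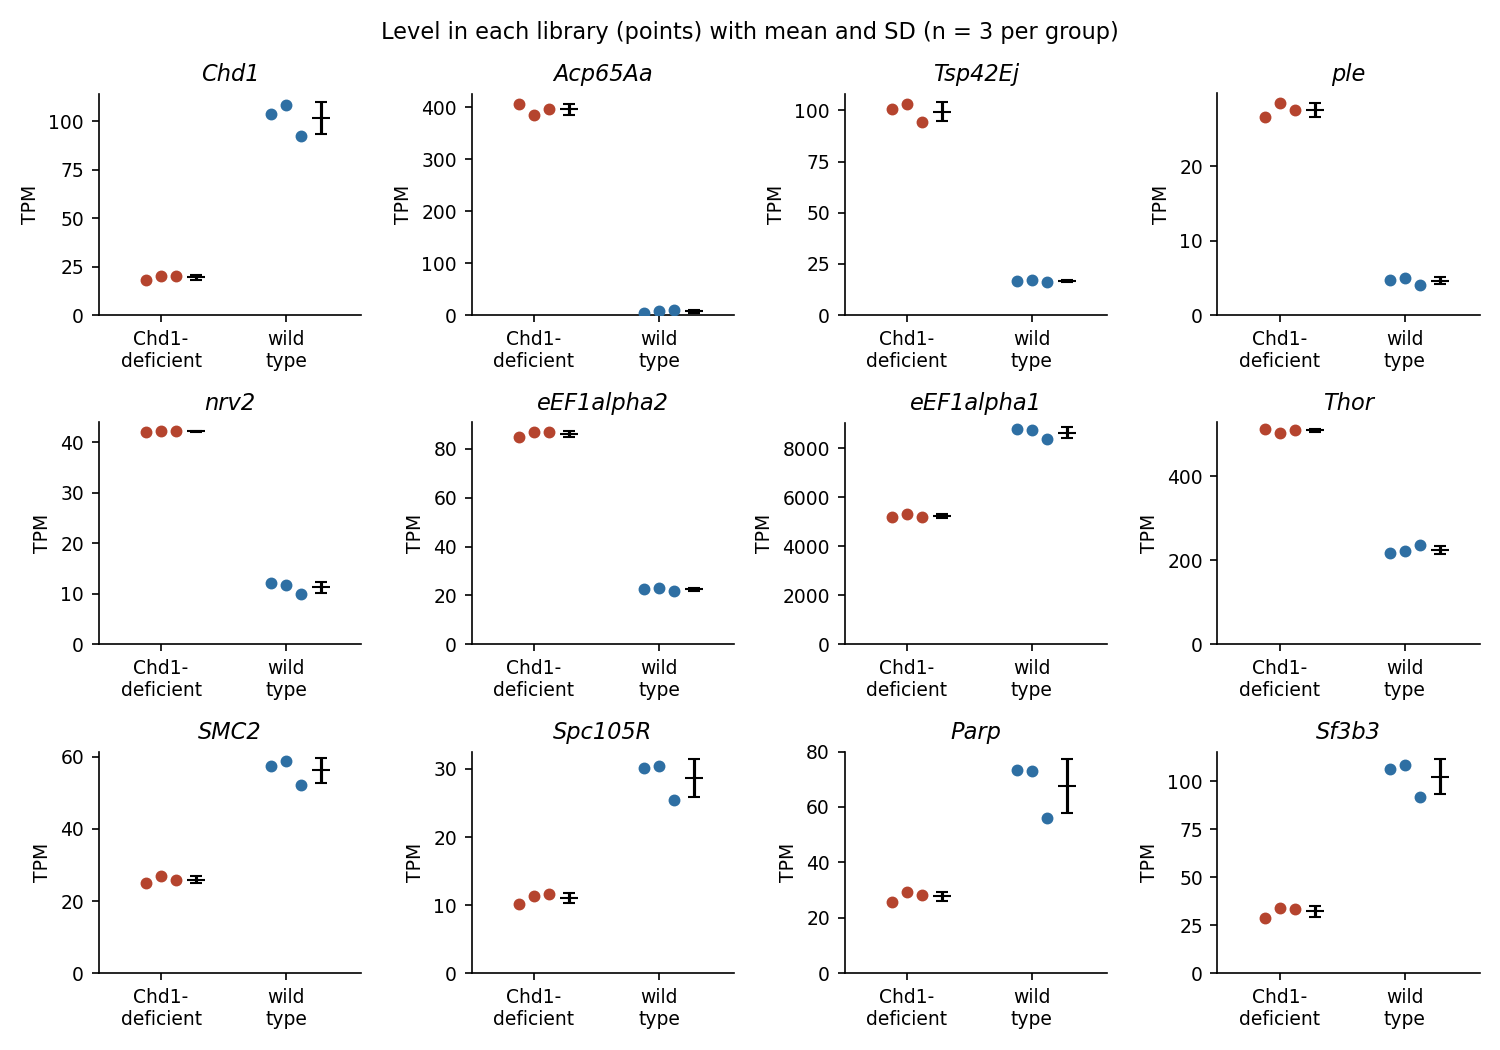
TPM of 12 named genes in each library, Chd1-deficient left and wild type right, with the mean and SD of the 3 libraries as a bar beside the points. The groups are separate in every panel; in the panels of SMC2, Spc105R, Parp and Sf3b3 the lowest of the wild-type points is the third library.

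To describe families, 65 gene lists were used, which hold 1218 tested genes, 299 of them higher and 807 lower. Within the lists 96 of 118 members below 3 TPM were higher and 386 of 454 members from 30 to 100 TPM were lower. Over all genes 84.5% and 78.3% were. List members are part of all genes, so the same direction is not a separate result. Of the 118, 63 had no wild-type library at 1 TPM, and the filter favours rises among such genes.

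Genes of chromosome duplication and segregation were almost all lower in the Chd1-deficient libraries, by about the same amount. Of 37 tested genes of kinetochore, spindle and cytokinesis 36 fell (median log2 fold change -0.74), of 18 cohesin and condensin genes 17 fell (-0.78), of 42 replication genes 41 fell (-0.70), and all 13 genes of the anaphase-promoting complex fell (-0.67). Over all genes 46% fell and the median was -0.05. Since most members are expressed at 10 to 100 TPM, where falls prevailed, list medians were also set against the median of each member's own level class, and lay lower by 0.44, 0.43, 0.35 and 0.33 in the same order. Spc105R, which joins the kinetochore to the checkpoint, had 10.1, 11.3 and 11.6 TPM in Chd1-deficient libraries versus 30.2, 30.4 and 25.4 TPM in wild type (-1.34, SE 0.08, limma adjusted p = 9.8e-08). SMC2, a core subunit of condensin, had 25.1, 26.9 and 25.8 TPM in Chd1-deficient libraries versus 57.6, 58.9 and 52.3 TPM in wild type (-1.10, SE 0.05). Every Chd1-deficient library was below every wild-type library. The outer kinetochore gene Ndc80 averaged 18.7 ± 0.416 TPM in Chd1-deficient and 40.8 ± 3.33 TPM in wild-type libraries, and the replication helicase gene RecQ4 23.7 ± 1.44 TPM in Chd1-deficient and 49.3 ± 3.81 TPM in wild-type libraries.

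DNA repair, meiosis and heterochromatin moved alike. Of 32 repair genes 30 fell (median -0.73), of 18 tested meiotic genes 14 fell and 1 rose (-0.73), and all 15 tested heterochromatin genes fell (-0.75). Parp, the poly(ADP-ribose) polymerase, had 25.9, 29.1 and 28.1 TPM in Chd1-deficient libraries versus 73.4, 73.1 and 56.2 TPM in wild type (-1.26, SE 0.10). Fancd2, a gene of crosslink repair, averaged 9.02 ± 0.448 TPM in Chd1-deficient and 23.2 ± 2.95 TPM in wild-type libraries. The meiotic recombination gene mei-218 averaged 7.72 ± 0.114 TPM in Chd1-deficient and 20.5 ± 1.39 TPM in wild-type libraries. rhi (rhino), the HP1 protein of germline piRNA clusters, averaged 38.6 ± 0.996 TPM in Chd1-deficient and 78.5 ± 4.51 TPM in wild-type libraries. The larger of 2 rises among the repair genes was in phr6-4, the photolyase for ultraviolet lesions, with 25.9, 25.5 and 25.5 TPM in Chd1-deficient libraries versus 3.68, 3.61 and 3.09 TPM in wild type (2.73, SE 0.08, limma adjusted p = 6.9e-10). Several of these genes act in the ovary, whose markers are given above.

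Lists of transcription and RNA processing were lower too, with medians nearer to those of their level classes, and 78.3% of all tested genes from 30 to 100 TPM fell. All 28 Mediator subunits fell (median -0.51), as did 31 of 34 tested general transcription factors and TAFs (-0.52), 35 of 37 spliceosome genes (-0.50), 42 of 43 genes of nuclear pore and transport (-0.61) and 26 of 31 genes of RNA decay (-0.41). These medians lay below the level classes by 0.16 for Mediator, 0.15 for general factors and TAFs, 0.22 for the spliceosome, 0.24 for the pore and 0.06 for RNA decay, whose share of falls was near that of its level. In chromatin complexes, 21 of 24 tested SAGA and ADA2 genes fell (-0.53), as did 14 of 16 trithorax and COMPASS genes (-0.52), each list 0.18 below its level classes. Sf3b3, a subunit of the U2 particle, stood out among the spliceosome genes, with 28.7, 34.2 and 33.7 TPM in Chd1-deficient libraries versus 107, 108 and 92.0 TPM in wild type (-1.65, SE 0.08, limma adjusted p = 1.7e-08). D12, an ADA2 complex subunit, averaged 12.7 ± 0.635 TPM in Chd1-deficient and 30.3 ± 2.12 TPM in wild-type libraries (-1.22, SE 0.06). In translation, 14 of 15 mitochondrial tRNA synthetases fell (-0.54, below their level classes by 0.28), as did 7 of 11 elongation and release factors, with 2 higher (-0.41, below by 0.20). The lists given next lay within 0.05 of the median of their level classes: cytosolic tRNA synthetases had 19 of 20 genes lower (-0.37), initiation factors 30 of 40 lower and 6 higher (-0.18; 1 or 2 higher of 35 tested without any 1 Chd1-deficient library), and COPI, COPII and p24 genes 19 of 24 lower (-0.34).

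**Figure D3:**
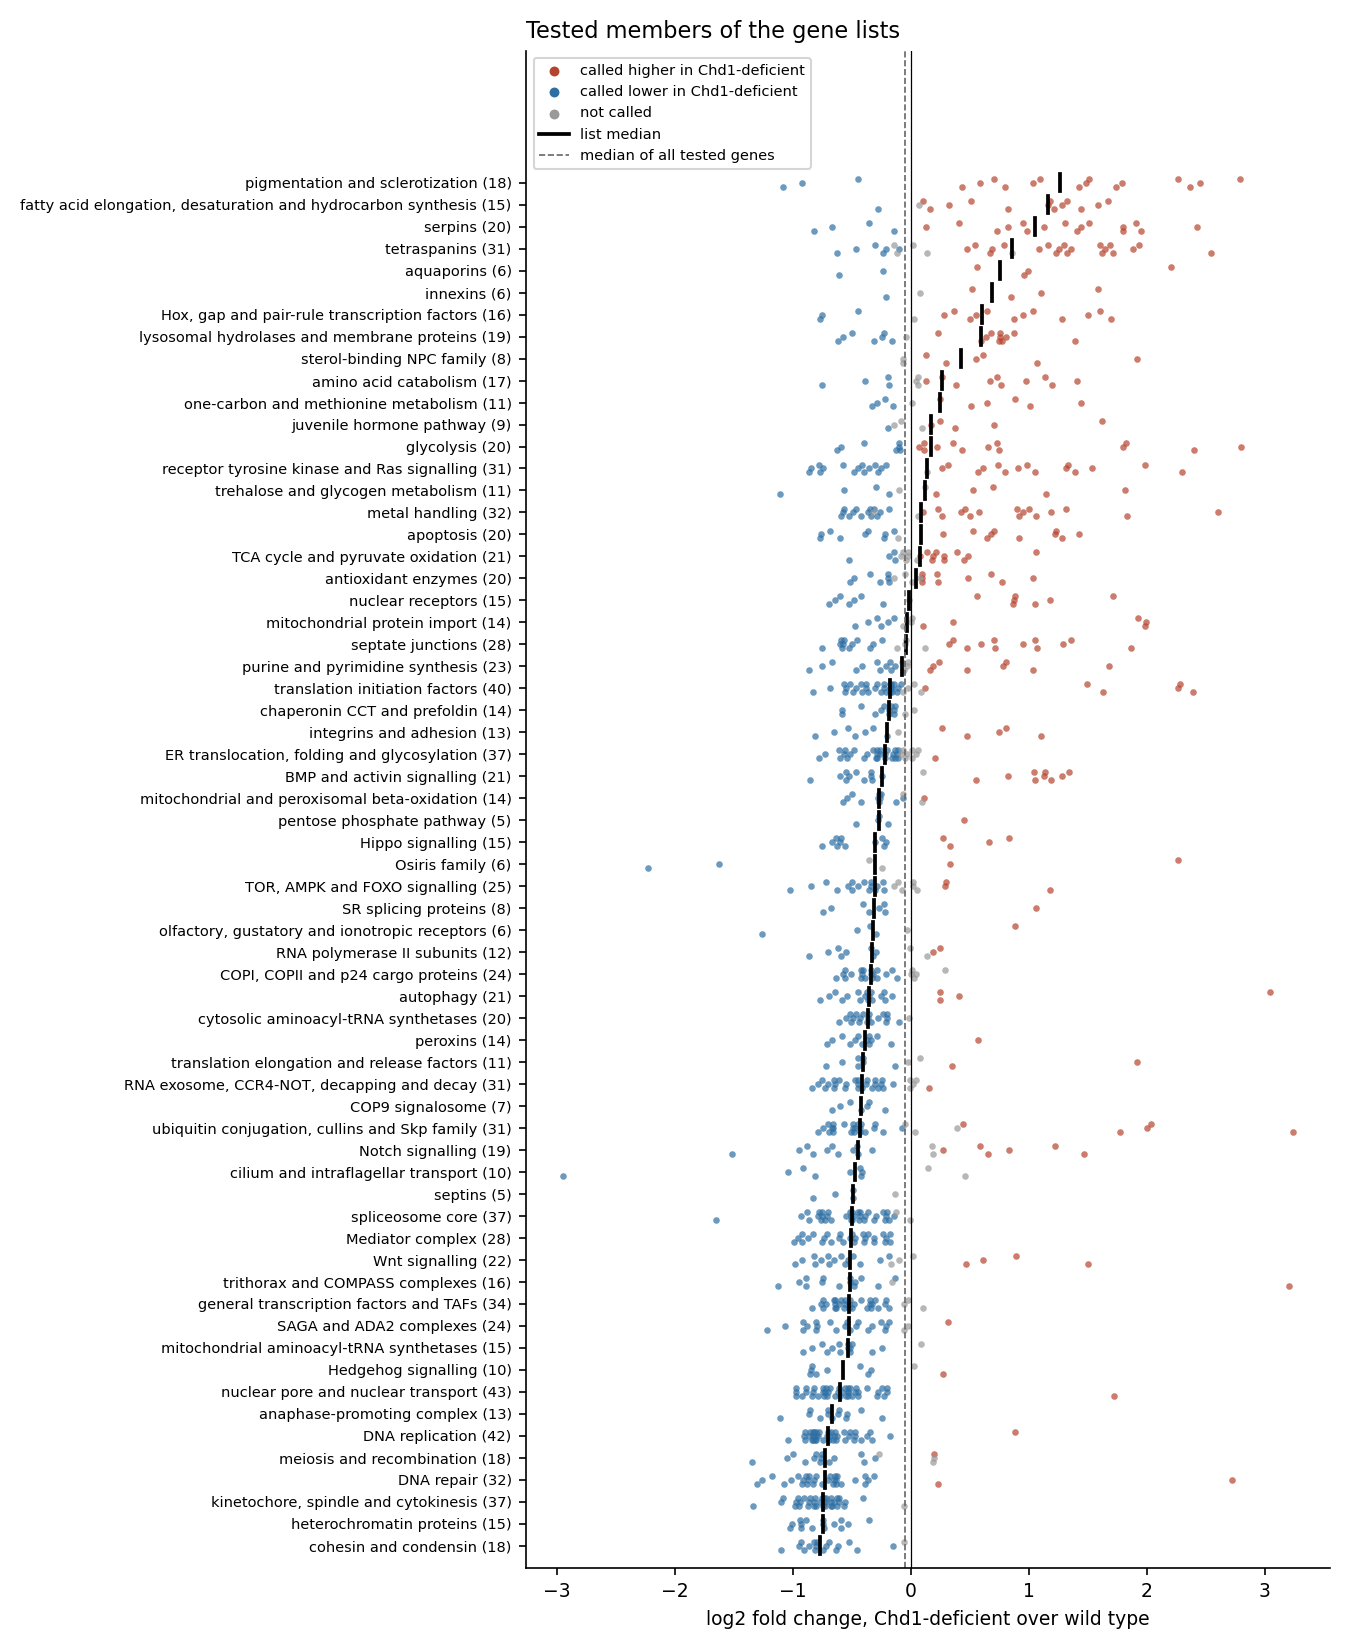
Log2 fold change (Chd1-deficient over wild type) of every tested member of the lists with at least 5 tested members, sorted by list median, with the number tested in parentheses. Lists of chromosome segregation, repair and heterochromatin lie at the low end near -0.75, and pigmentation, hydrocarbon synthesis and serpins at the high end above 1.

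Inside families that mostly fell, some members that rose were second copies of a housekeeping gene. These pairs were picked after the values were seen. eEF1alpha1, the main translation elongation factor, had 5186, 5321 and 5195 TPM in Chd1-deficient libraries versus 8801, 8735 and 8383 TPM in wild type (-0.72, SE 0.03). Its paralogue eEF1alpha2 had 84.7, 87.1 and 86.9 TPM in Chd1-deficient libraries versus 22.6, 23.0 and 21.9 TPM in wild type (1.92, SE 0.04). Among cap-binding proteins, eIF4E1 averaged 895 ± 11.3 TPM in Chd1-deficient and 1012 ± 7.85 TPM in wild-type libraries, while eIF4E3, which acts in the testis, averaged 3.14 ± 0.444 TPM in Chd1-deficient and 0.193 ± 0.0865 TPM in wild-type libraries (2.39, SE 0.14). The nuclear transport GTPase gene Ran averaged 944 ± 36.3 TPM in Chd1-deficient and 1145 ± 36.3 TPM in wild-type libraries, and Ran-like 1.82 ± 0.0653 TPM in Chd1-deficient and 0.206 ± 0.0806 TPM in wild-type libraries (1.73, SE 0.13). The COMPASS gene Dpy-30L1 did not pass the test (-0.16, limma adjusted p = 0.083), and Dpy-30L2 had 15.4, 18.5 and 16.5 TPM in Chd1-deficient libraries versus 1.42, 1.78 and 0.986 TPM in wild type (3.21, SE 0.20). Both autophagy copies rose: Atg8a averaged 439 ± 9.03 TPM in Chd1-deficient and 331.8 ± 8.84 TPM in wild-type libraries, and Atg8b 5.27 ± 0.291 TPM in Chd1-deficient and 0.221 ± 0.220 TPM in wild-type libraries (3.05, SE 0.19). Ubc87F, a ubiquitin-conjugating enzyme gene, averaged 11.1 ± 2.26 TPM in Chd1-deficient and 0.716 ± 0.126 TPM in wild-type libraries (3.24, SE 0.18). Of these genes eIF4E3, Ran-like, Atg8b and Ubc87F had no wild-type library at 1 TPM, and the filter favours rises among such genes. With at least 1 TPM in all 6 libraries, 1 of 35 initiation factors was higher, and 0 of 42 genes of nuclear pore and transport. Male markers were also higher in the Chd1-deficient libraries, and their part in the rises of these copies was not tested.

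Signalling genes were grouped by role after the values were seen. In receptor tyrosine kinase and Ras signalling, in which ligands activate receptors that work through Ras and a kinase cascade, all 9 intracellular transducers fell and all 3 feedback inhibitors rose. Of 12 tested genes for ligands and their processing, 8 rose and 4 fell, and of 5 tested receptors 4 rose and 1 fell. No wild-type library reached 1 TPM for 2 of the 12 and 1 of the 5, and the filter favours rises among such genes. The Sevenless ligand boss had 12.4, 11.9 and 11.6 TPM in Chd1-deficient libraries versus 2.15, 1.91 and 2.06 TPM in wild type (2.30, SE 0.09). kek1, an inhibitor of the EGF receptor, averaged 11.4 ± 0.428 TPM in Chd1-deficient and 3.64 ± 0.338 TPM in wild-type libraries (1.53, SE 0.08). rl, the ERK kinase, had 102, 112 and 109 TPM in Chd1-deficient libraries versus 211, 201 and 170.1 TPM in wild type (-0.85, SE 0.07). In BMP and activin signalling, all 3 Smad transducers fell and 3 of 4 tested extracellular modulators rose. Of 5 BMP and activin receptors 4 fell and 1 rose, and of 6 tested ligands 3 rose and 2 fell. sog, a secreted BMP antagonist, averaged 8.59 ± 0.483 TPM in Chd1-deficient and 3.24 ± 0.142 TPM in wild-type libraries, and the inhibitory Smad Dad 10.0 ± 0.0395 TPM in Chd1-deficient and 3.69 ± 0.488 TPM in wild-type libraries. Mad averaged 61.0 ± 3.61 TPM in Chd1-deficient and 111 ± 11.2 TPM in wild-type libraries (-0.85, SE 0.07). The transducers were all above 10 TPM and most of the higher ligands below it, so role and level cannot be told apart here. Over all genes 42.9% rose, with 84.5% below 3 TPM and 72.5% from 3 to 10 TPM. Wnt (15 of 22 tested genes lower, 4 higher), Hedgehog (8 of 10 lower) and Hippo genes (11 of 15 lower, 4 higher) mostly fell. Over all genes 46% fell, with 59.0% from 10 to 30 TPM and 78.3% from 30 to 100 TPM. The medians of the 3 lists lay below the level classes by 0.38, 0.37 and 0.14 in the same order.

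**Figure D4:**
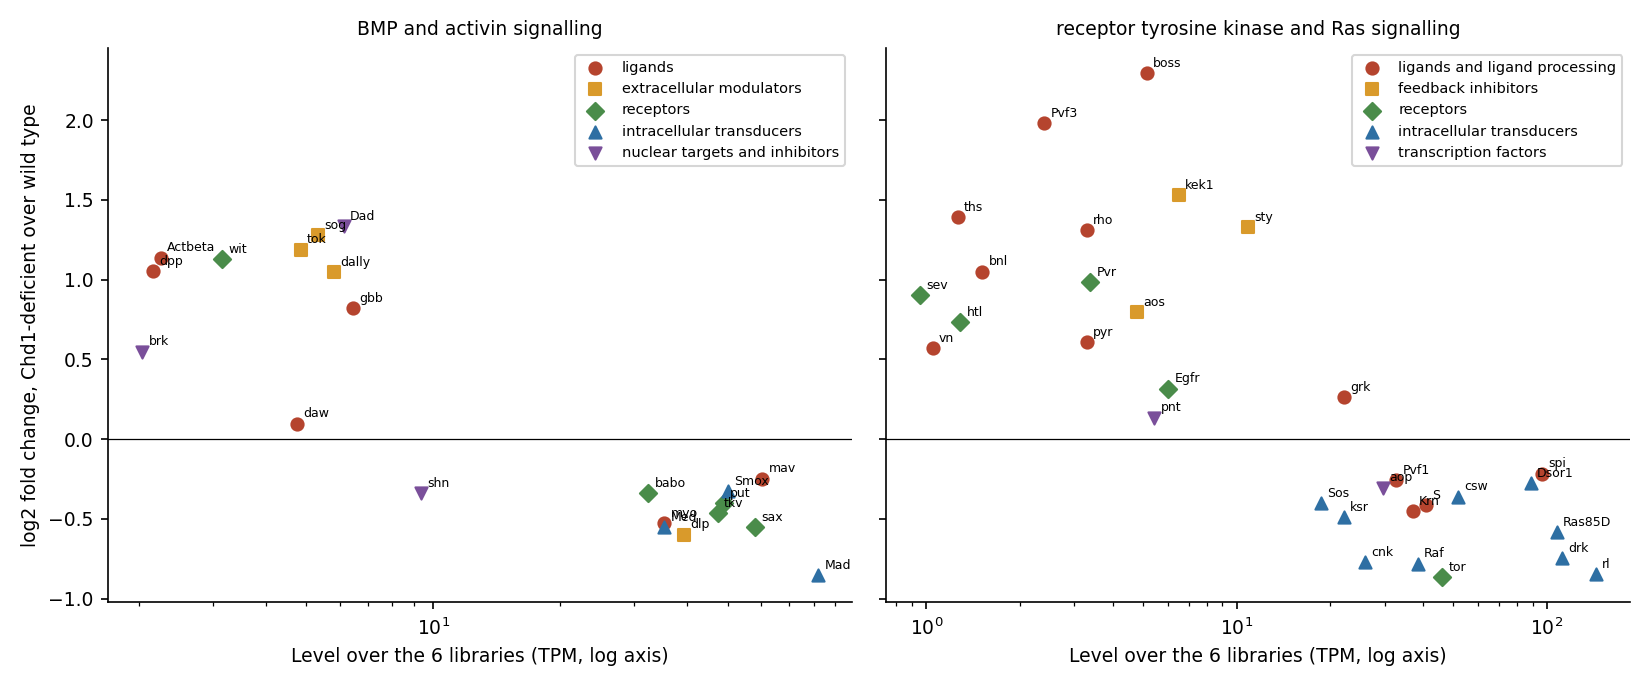
Log2 fold change (Chd1-deficient over wild type) against level over the 6 libraries in TPM (log axis) for tested genes of BMP and activin signalling (left) and of receptor tyrosine kinase and Ras signalling (right), marked by role. Intracellular transducers lie at the lower right, between -0.28 and -0.85, and most ligands and inhibitors at the upper left.

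Growth control and cell death were mixed. Thor, the translation inhibitor that FOXO induces and TOR restrains, had 512, 504 and 511 TPM in Chd1-deficient libraries versus 217, 222 and 236 TPM in wild type (1.18, SE 0.04, limma adjusted p = 1.0e-09). Of 25 genes of TOR, AMPK and FOXO signalling 16 fell, against 46% over all genes, and the list median lay above the level classes by 0.07. Nprl3, a subunit of the complex that restrains TOR when amino acids are short, averaged 20.9 ± 0.469 TPM in Chd1-deficient and 43.2 ± 3.26 TPM in wild-type libraries. Of 20 tested apoptosis genes 10 rose and 9 fell. The effector caspase gene Drice averaged 51.8 ± 1.43 TPM in Chd1-deficient and 88.99 ± 3.69 TPM in wild-type libraries, whereas the death inducer hid averaged 5.37 ± 0.0335 TPM in Chd1-deficient and 2.61 ± 0.0219 TPM in wild-type libraries. Among nuclear receptors, 7 of 15 tested rose and 7 fell. The ecdysone receptor EcR averaged 20.2 ± 0.817 TPM in Chd1-deficient and 33.2 ± 3.05 TPM in wild-type libraries, and its early target Eip75B 21.1 ± 0.245 TPM in Chd1-deficient and 11.2 ± 1.20 TPM in wild-type libraries.

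Metabolic lists went different ways. In glycolysis and gluconeogenesis 13 of 20 genes rose and 7 fell, against 42.9% and 46% over all genes. Of the 20, 3 had no wild-type library at 1 TPM, Pepck2 among them. Among the 17 with at least 1 TPM in all 6 libraries, 10 rose and 7 fell (median 0.11). The list summed to 6125 to 6220 TPM in Chd1-deficient and 6629 to 6793 TPM in wild-type libraries. Gpo1, the mitochondrial glycerol-phosphate oxidase, had 69.4, 71.0 and 71.8 TPM in Chd1-deficient libraries versus 19.7, 19.3 and 19.9 TPM in wild type (1.82, SE 0.04). Pepck2 averaged 8.24 ± 1.38 TPM in Chd1-deficient and 0.749 ± 0.106 TPM in wild-type libraries, and Gapdh2 1169 ± 12.6 TPM in Chd1-deficient and 1809.8 ± 43.5 TPM in wild-type libraries (-0.63, SE 0.03). Of 21 tricarboxylic acid cycle genes 11 rose and 4 fell (7 without the third wild-type library), led by the citrate synthase gene kdn averaging 301 ± 8.52 TPM in Chd1-deficient and 144 ± 4.42 TPM in wild-type libraries (1.06, SE 0.03). UGP, which makes the UDP-glucose for glycogen and trehalose, averaged 69.4 ± 2.93 TPM in Chd1-deficient and 151 ± 12.96 TPM in wild-type libraries (-1.11, SE 0.06). Beta-oxidation was lower for 11 of 14 genes and higher for 1, with the largest fall at -0.58. Its median lay above the level classes by 0.07, and 78.3% of all tested genes from 30 to 100 TPM fell. The pentose phosphate pathway was lower for 4 of 5 genes and higher for 1, with its median below the level classes by 0.06. Uro, the urate oxidase of Malpighian tubules, averaged 33.4 ± 1.56 TPM in Chd1-deficient and 10.1 ± 0.259 TPM in wild-type libraries (1.68, SE 0.05). The iron transporter Tsf1 averaged 343 ± 8.74 TPM in Chd1-deficient and 151 ± 0.993 TPM in wild-type libraries, and the catalase gene Cat 95.7 ± 1.64 TPM in Chd1-deficient and 55.9 ± 2.40 TPM in wild-type libraries. The peroxiredoxin Jafrac1 ran the other way averaging 1185 ± 13.8 TPM in Chd1-deficient and 1698 ± 42.3 TPM in wild-type libraries.

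Lists of the body surface and of epithelia differed among themselves. Of 18 tested genes of pigmentation and sclerotization 15 were higher, 11 of them at least 2-fold (median 1.26), against 42.9% and 27.1% over all genes. Of the 18, 5 had no wild-type library at 1 TPM, and the filter favours rises among such genes. All 18 were still tested without any 1 Chd1-deficient library. Among the 11 with at least 1 TPM in all 6 libraries, 8 were higher and 3 lower (median 0.71), and the full list lay at the median of its level classes (difference -0.02). ple (tyrosine hydroxylase), which makes the dopamine precursor used in cuticle and in neurons, had 26.6, 28.6 and 27.6 TPM in Chd1-deficient libraries versus 4.79, 5.06 and 4.12 TPM in wild type (2.45, SE 0.08). e (ebony), which conjugates dopamine to beta-alanine, had 9.12, 8.46 and 8.59 TPM in Chd1-deficient libraries versus 0.951, 0.771 and 0.781 TPM in wild type (2.79, SE 0.09). The largest of the 3 falls was in yellow-g2, a gene of the eggshell averaging 52.04 ± 2.73 TPM in Chd1-deficient and 111 ± 1.8 TPM in wild-type libraries. Of 15 tested genes of very long chain fatty acid and cuticular hydrocarbon synthesis 13 were higher, 8 at least 2-fold (median 1.16, above the level classes by 0.56). Among the 13 of these genes with at least 1 TPM in all 6 libraries, 11 were higher and 1 lower (median 0.82). Fad2, the desaturase of female pheromone dienes, averaged 62.4 ± 1.63 TPM in Chd1-deficient and 25.5 ± 0.633 TPM in wild-type libraries (1.28, SE 0.04). The cholesterol-binding gene Npc2b averaged 56.1 ± 2.99 TPM in Chd1-deficient and 14.5 ± 1.14 TPM in wild-type libraries (1.91, SE 0.06).

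Tetraspanins are membrane proteins with a fold that crosses the membrane several times. Of 31 tested genes 20 were higher and 6 lower (median 0.85, above the level classes by 0.30), and 4 had no wild-type library at 1 TPM. Over all genes 42.9% were higher and 46% lower. Among the 25 with at least 1 TPM in all 6 libraries, 14 were higher and 6 lower (median 0.67). Tsp42Ej had 101, 103 and 94.3 TPM in Chd1-deficient libraries versus 16.6, 17.1 and 16.02 TPM in wild type (2.55, SE 0.05, limma adjusted p = 1.9e-11). Septate junctions, the occluding junctions of fly epithelia, were split evenly, with 12 of 28 genes higher and 12 lower. Of 13 tested genes of integrins and adhesion 5 rose and 7 fell (median -0.21), and of 6 tested Osiris genes 2 rose and 2 fell. For 4 of these 6 Osiris genes no wild-type library reached 1 TPM, and none had 1 TPM in all 6 libraries. Among genes of the smooth septate junction of the gut, mesh, Ssk and Tsp2A rose, with log2 fold changes of 1.29, 1.07 and 1.36. Gut markers rose too. nrv2, the sodium pump subunit that septate junctions need and that glia and neurons also express, had 42.1, 42.3 and 42.2 TPM in Chd1-deficient libraries versus 12.1, 11.8 and 10.0 TPM in wild type (1.86, SE 0.06). The polarity gene l(2)gl averaged 56.8 ± 2.04 TPM in Chd1-deficient and 96.7 ± 10.7 TPM in wild-type libraries. Serpins, secreted protease inhibitors, were higher for 16 of 20 tested genes and lower for 4 (median 1.05, above the level classes by 0.19), or lower for 2 without the second wild-type library, with Spn88Eb averaging 19.3 ± 0.248 TPM in Chd1-deficient and 4.65 ± 0.292 TPM in wild-type libraries.

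Families that mark sensory and ciliated cells were barely measured. Of 178 olfactory, gustatory and ionotropic receptor genes 6 were tested, and of 29 pickpocket channel genes 3. None of the 7 axonemal dynein heavy chain genes outside the Y chromosome passed the filter. Of 32 cilium genes 10 were tested, of which 8 fell and none rose, against 46% and 42.9% over all genes. The largest of these falls was in Oseg5, a gene of intraflagellar transport, with 0.629, 0.398 and 0.480 TPM in Chd1-deficient libraries versus 6.76, 8.36 and 6.67 TPM in wild type (-2.95, SE 0.12, limma adjusted p = 6.3e-09). Below the filter the authors' deposited table, which holds only genes they list as changed, has 19 of the remaining 172 receptor genes, 6 of the 26 pickpocket genes, 4 of the 7 dynein genes and 10 of the 22 cilium genes, all with a positive fold change. That table lists 1733 genes that did not pass the filter here, 1689 of them higher, and 3574 that did. Of these 3574 genes the authors' deposited table has 3380 higher and 194 lower, all with the sign of the present fit. Both come from the same libraries, so equal signs are not independent support. With 194 falls listed, that table does not speak to most of the 5101 genes called lower here.

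Transcript length moved with direction as well. Among protein-coding genes, those whose longest annotated transcript is under 1000 bases had a median log2 fold change of 0.64 (2126 tested), against -0.12 from 1000 to under 2000 bases, -0.28 from 2000 to under 4000 bases and -0.25 at 4000 bases and above. Within the class from 10 to 30 TPM, 200 of 287 short genes rose (median 0.79), and 76 of 496 genes of at least 4000 bases (median -0.43). From 30 to 100 TPM the medians were -0.11 for short and -0.54 for the longest genes. Without the neuron, eye, muscle, immune and male lists the medians from 10 to 30 TPM were 0.68 and -0.45. Length also separated libraries of one genotype: over genes of 10 to 100 TPM, those of at least 4000 bases lay lower by a median log2 difference of -0.20 in the third wild-type library against its fellows, and differed by 0.10 to -0.10 in the other 5 libraries, against -0.49 between genotypes. Short genes differed by no more than 0.01 in any library. The part of transcript length, or of RNA quality, in the results above was not tested.

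**Figure D5:**
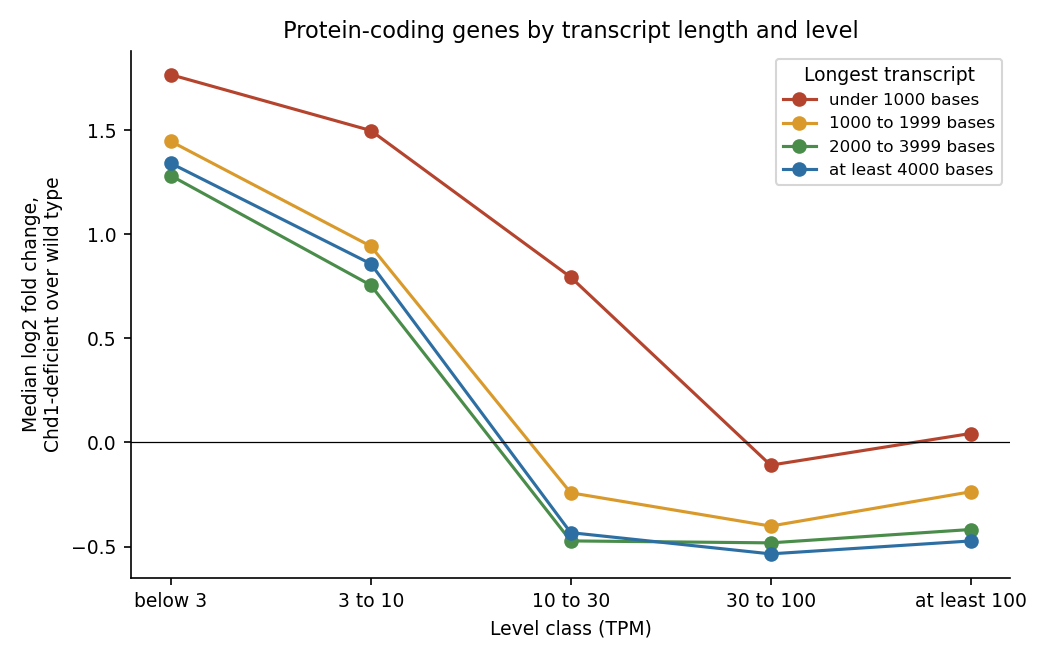
Median log2 fold change (Chd1-deficient over wild type) of tested protein-coding genes in each level class, one line per class of longest annotated transcript. The line of transcripts under 1000 bases lies above the others in every class, at 1.77 below 3 TPM and 0.04 at 100 TPM and above.

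The median log2 fold change was 0.02 on 2L, 0.01 on 2R, -0.09 on 3L, -0.04 on 3R, 0.07 on 4 and -0.15 on X. On X 682 of 1794 tested genes rose and 902 fell. From 10 to 30 TPM the median was -0.37 on X and -0.22 to -0.37 on 2L, 2R, 3L and 3R. From 30 to 100 TPM it was -0.37 on X and -0.41 to -0.46 on those arms. On the Y chromosome 2 of 50 genes were tested and both rose at least 2-fold (median 2.36), against 27.1% over all genes. Neither had a wild-type library at 1 TPM, and the filter favours rises among such genes. All Y genes together summed to 7.33 to 9.95 TPM in Chd1-deficient and 0.428 to 0.621 TPM in wild-type libraries, which are all labelled female. Of 418 tested noncoding RNAs 210 were higher and 60 lower (median 0.48), or 50.2% and 14.4% against 42.9% and 46% over all genes. Of the 418, 107 had no wild-type library at 1 TPM, and the filter favours rises among such genes. Noncoding RNAs were not split by level. Among 13 tested snRNA genes 6 fell and 1 rose. Genes with a CG number and no name had a median of 0.25 (4518 tested) and named protein-coding genes -0.20 (6046 tested). No wild-type library reached 1 TPM for 926 of the former and 562 of the latter.

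Rises of at least 2-fold lay next to each other in places. In annotation order there were 80 runs of 4 or more neighbouring protein-coding genes that all rose at least 2-fold, holding 360 genes, and 1 run of 4 that fell; the run length was chosen after the values were seen, and the number that chance gives was not computed. Outside the male, immune, muscle and neuron lists, the longest was a stretch of 7 tetraspanin genes on chromosome 2R (7040136 to 7057548, BDGP6.54), Tsp42Ej, Tsp42Ek, Tsp42El, lbm, Tsp42En, Tsp42Ep and Tsp42Eo, with log2 fold changes of 1.16 to 2.55. A run of 6 on 2L (7727157 to 7753186) holds CG13796, CG31904, Acp1, CG7214, ATPsynGL and CG7203, with log2 fold changes of 1.24 to 4.31. The glutathione transferase genes GstE10, GstE1, GstE2 and GstE3 form a run of 5 with Idgf5 on 2R (18393666 to 18401467), in which GstE1 had 93.6, 86.6 and 88.9 TPM in Chd1-deficient libraries versus 11.2, 12.0 and 13.01 TPM in wild type.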

How the data were processed

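RNA from 9 libraries was measured, of which 6 are compared. The files deposited by the authors give TPM per gene and library; Salmon and DESeq2 are named, with no version, per the submitters' processing notes. No genome build was found in the sources used here. From the authors' deposited table for this comparison only the genes listed and the sign of their log2 fold change were used (its mean normalized signal was read but is not printed). Genes were matched by symbol to Ensembl 115 (BDGP6.54): 16016 current symbols and 752 synonyms of 16837.

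Values were transformed to log2(TPM + 0.5). limma-trend 3.58.1 (R 4.3.3) fitted all 9 libraries with 1 mean per genotype, since a shared fit estimates the spread better; p-values were adjusted by the Benjamini-Hochberg method over all genes reaching 1 TPM in 3 or more libraries, and called under 0.05. The fit was checked on simulated data in which few genes differed and the noise was independent between libraries. That check does not speak to data in which most genes are called. Depth is unknown, so no counting interval is given. The level of a gene is its mean log2 value over the 6 libraries, back-transformed.

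The members, lists and alternatives were chosen with earlier results of these data known, and some list members were corrected after the files were read. Lists are described by counts and medians without a test. Named are Chd1, in each list up to 3 called genes with the largest change and 1 against the majority, and in each level class the 3 largest rises and falls outside the neuron, eye, muscle, immune and male lists. All have a group mean of at least 5 TPM (1 TPM in the lowest class) and groups that do not overlap. Other genes named (Ran, Ran-like, eIF4E1, eIF4E3, Dpy-30L1, Atg8a, rl, Mad, Ssk, GstE1 and members of runs) were chosen after their values were seen. Promoter sequences were not used here.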

Additional observations from a re-analysis of the deposited data

How the results depend on the processing

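With at least 10 TPM required in 3 libraries, 1855 genes were called higher and 4854 lower, against 4758 and 5101, since that filter removes low genes; with at least 2-fold change 1088 were called (910 higher) against 3231 (3003 higher). The share of calls that were higher was 48.3%, and 27.6% under that filter; median-ratio scaling gave 48.8% and no filter 56.6%. Leaving out 1 library gave 8559 to 9982 calls (3605 to 4727 higher, 4931 to 5267 lower), 2234 to 3269 of them at least 2-fold (2013 to 3022 higher, 194 to 299 lower), and a Chd1 level that differed by a log2 fold change of -2.42 to -2.31. With a Chd1-deficient library left out fewer low genes pass the filter (10034 to 10047 tested). The other alternatives (no filter, a filter on the mean of the 6 libraries, pseudocounts of 0.1 and 1, median-ratio scaling, only the 6 libraries) kept every count within 1.5 times, as did classing genes by the arithmetic mean, or without the excluded lists, for the calls higher and lower per level class; without those lists rises of at least 2-fold at 100 TPM and above numbered 58 against 89. Libraries with the same replicate number did not deviate together (correlations of -0.155, -0.0148 and 0.0224); with the replicate number as a block 9821 genes were called, 3232 at least 2-fold. Of 3664 recomputed fold changes of 266 named genes, 3639 kept direction and call and 25 missed the threshold; none reversed. Those 25 belong to Mfe2, Rpb10, Rrp42, corolla, Ada2a and tai. Counts per list without each library were added after seeing the data. Without the third wild-type library, 7 tricarboxylic acid cycle genes fell instead of 4; without a Chd1-deficient library, 1 or 2 initiation factors rose instead of 6. Autophagy genes higher numbered 4, and 2, 1 and 2 without Chd1-deficient replicates 1, 2 and 3, 3 without the first and 2 without the third wild-type library. Unknown depth limits what can be said of genes near 1 TPM.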
